A study of Mus musculus with 3 samples.

Results

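The 10 Toll-like receptor genes described here, Tlr1 to Tlr9 and Tlr13, were chosen by gene symbol from 55536 annotated genes. The libraries were made from cytosolic total RNA, after removal of ribosomal RNA, of bone marrow-derived macrophages, which are grown in culture from mouse bone marrow, of the inbred strain C57BL/6J. Every culture had received 100 ng/ml lipid A, the membrane anchor of bacterial lipopolysaccharide and its active moiety, for 60 min. The 3 libraries, each from 1 µg of RNA, form 1 group and carry the replicate numbers 1, 2 and 3 of their labels. The labels list them as biological replicates but give 1 shared donor entry that names the strain, and sex and age as not collected. The p-values therefore set a level against the spread between these samples only, a spread that may be technical. Unstimulated cells and other fractions were not analysed here, so the values are levels after lipid A and no induction was measured.

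Toll-like receptors are transmembrane sensors of microbial molecules, with a horseshoe of leucine-rich repeats that binds the ligand and a cytoplasmic TIR domain that recruits adaptor proteins. Tlr1, Tlr2, Tlr4, Tlr5 and Tlr6 encode receptors of the cell surface that bind bacterial lipoproteins, lipopolysaccharide or flagellin. Tlr3, Tlr7, Tlr8, Tlr9 and Tlr13 encode receptors of endosomes that bind RNA or DNA. Macrophages are one of the main cell types in which this family is studied, and lipid A acts through the protein encoded by Tlr4.

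The neighbouring members Tlr1 and Tlr6 share part of their sequence, which bears on every value of theirs. They lie 18467 bases apart on the minus strand of chromosome 5 (GRCm38, the build called mm10), and the first transcripts of both, Tlr1-201 and Tlr6-201, hold a block of 910 bases with 10 differing bases (98.9% identical). The window below was chosen because it lies in this block. It is coding in both genes, covers bases 1928 to 2167 of Tlr1-201 (chr5:64925296-64925535) and bases 1882 to 2121 of Tlr6-201 (chr5:64953587-64953826), and has 1 differing base, shown in capitals. Sequences are from the GENCODE M21 transcripts, 5′ to 3′.
Tlr1: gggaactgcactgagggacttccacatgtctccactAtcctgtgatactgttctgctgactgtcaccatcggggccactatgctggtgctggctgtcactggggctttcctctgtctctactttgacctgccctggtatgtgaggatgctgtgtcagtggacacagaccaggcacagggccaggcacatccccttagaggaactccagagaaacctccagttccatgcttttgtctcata
Tlr6: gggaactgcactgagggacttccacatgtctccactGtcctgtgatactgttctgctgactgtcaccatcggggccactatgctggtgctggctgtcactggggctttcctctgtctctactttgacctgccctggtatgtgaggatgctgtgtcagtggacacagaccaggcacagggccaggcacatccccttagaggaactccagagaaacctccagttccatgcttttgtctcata
Among all stretches of 31 bases in the transcripts of Tlr1, 20.0% also occurred in another gene, and 607 of these 665 were shared with Tlr6. For Tlr6 the share was 16.6%. Tlr4 had 0.559% and the other 7 members had 0 shared stretches. Only stretches in the same orientation were counted, so sequence shared with antisense transcripts is not covered. The posterior SD of the expected counts deposited with each gene was still only 5.07 to 6.94 reads for Tlr1 and Tlr6, against 1573 to 5645 expected counts. Reads from the shared block may be split between the genes, an uncertainty in the values of Tlr1 and Tlr6 that their counts alone do not show. Tlr1 lies at chr5:64924679-64933563 and Tlr6 at chr5:64952031-64960097.

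RefSeq start-site windows of GRCm38.p6, which cover 250 bases before and 50 after a start, held 10 windows for 8 of the 10 members. Tlr4 and Tlr7 had no entry. Of the 5 members called above the median gene in the test that follows, Tlr2, Tlr13 and Tlr8 had a window, and the part of each that lies before the start and outside annotated exons is printed to show what precedes these genes. The same part is printed for the upstream start of Tlr1, a gene for which 2 starts could be compared. Capitals mark matches, on either strand, to GAGGAA, the core of the PU box bound by the macrophage factor PU.1, or to GGGNNNNNCC, a loose form of the motif bound by NF-kappaB. In the order printed the stretches lie at chr3:83841768-83841858 (minus strand), chrX:106143025-106143203 (plus strand), chrX:167264330-167264579 (minus strand) and chr5:64933564-64933808 (minus strand).
Tlr2: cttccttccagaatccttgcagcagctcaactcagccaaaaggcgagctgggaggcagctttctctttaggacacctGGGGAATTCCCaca
Tlr13: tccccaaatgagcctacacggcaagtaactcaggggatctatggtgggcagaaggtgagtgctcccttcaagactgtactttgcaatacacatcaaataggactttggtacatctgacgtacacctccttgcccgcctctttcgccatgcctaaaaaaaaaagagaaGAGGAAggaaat
Tlr8: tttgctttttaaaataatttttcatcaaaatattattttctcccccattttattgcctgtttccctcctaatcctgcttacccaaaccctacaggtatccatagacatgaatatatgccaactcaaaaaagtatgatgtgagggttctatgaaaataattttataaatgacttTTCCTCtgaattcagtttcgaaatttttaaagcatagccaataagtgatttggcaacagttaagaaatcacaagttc
Tlr1: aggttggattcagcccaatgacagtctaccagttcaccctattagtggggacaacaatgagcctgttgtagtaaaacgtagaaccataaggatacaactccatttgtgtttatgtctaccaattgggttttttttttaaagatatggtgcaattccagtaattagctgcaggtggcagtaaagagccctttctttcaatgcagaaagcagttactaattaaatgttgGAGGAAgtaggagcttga
GAGGAA occurred in 4 of the 10 whole windows (Tlr1, Tlr8, Tlr9 and Tlr13), and in 28.3% of all 32851 windows of this length. GGGNNNNNCC also occurred in 4 of 10 (Tlr2, Tlr3, Tlr5 and Tlr6), and in 50.8% of all windows. The Tlr2 window held 7 overlapping matches to it at 2 places, the first of which starts 173 bases before the RefSeq start, while the other lies in an annotated exon and is not printed. These matches describe the letters and are not binding sites shown by these data.

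The surface receptor gene Tlr2 and the endosomal receptor genes Tlr7, Tlr13 and Tlr8 were the most abundant members, Tlr4 and Tlr1 were intermediate, Tlr6, Tlr9 and Tlr3 were low and Tlr5 was the lowest, under 1 TPM. Levels are in TPM, a transcript abundance scaled by length and by the library total, which allows levels of different genes to be set side by side. Of the 10 genes, 9 reached a mean of 1 TPM and were tested against the library's own median protein-coding gene, which stood at 9.08, 5.76 and 6.86 TPM. The test was limma's moderated one-sample test on log2(TPM + 0.1) against a band of 2-fold, with Benjamini-Hochberg adjustment over 9123 genes. It called 5 members above the median gene and 0 below, and 4 were not called, while over all tested genes 26.3% were called above and 24.5% below. At an unadjusted limma p under 0.05 the counts of members were likewise 5 and 0, beside 2464 and 2303 of the 9123 tested genes. With the other scalings, filters and tables tried, at most 1 member was called below. The median level of all 10 members, with the untested Tlr5, was 19.5 TPM. Over the protein-coding genes tested, all with a mean of at least 1 TPM, the median was 7.24 TPM.

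**Figure D1:**
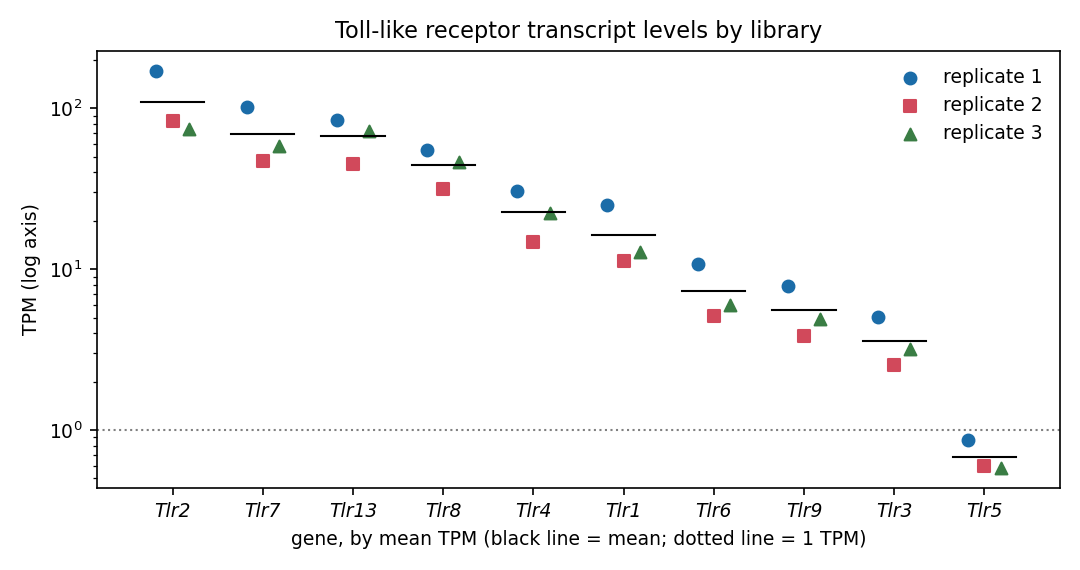
TPM of each receptor gene on a log axis, 1 point per library and a black line at the mean of 3 libraries. Levels run from 172 TPM for Tlr2 in replicate 1 to 0.58 TPM for Tlr5 in replicate 3, and replicate 1 is the highest library for all 10 genes.

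Among the surface receptors, Tlr2, which pairs with Tlr1 or Tlr6 to bind bacterial lipoproteins, stood at 172, 83.0 and 74.8 TPM in replicates 1, 2 and 3 (110 ± 53.7, SD, n = 3). Replicate 1 was the highest, and in units of the median gene the order was kept, at 18.9, 14.4 and 10.9 times that gene. On the log2(TPM + 0.1) scale it lay 3.83 ± 0.15 (SE) over the median gene (limma adjusted p = 4.7e-06), at percentile 95.6 ± 1.2 of the tested protein-coding genes. Tlr2 (ENSMUSG00000027995.10) lies at chr3:83836272-83841767 and has 1 annotated transcript, with 43487, 34521 and 26902 expected counts.

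The partner receptors of Tlr2 were much lower. Tlr1, which with Tlr2 binds triacylated lipopeptides, stood at 25.2, 11.3 and 12.7 TPM (16.4 ± 7.65), again highest in replicate 1. Its level, 1.10 ± 0.12 above the median gene in log2 units, was not called outside the band (limma adjusted p = 0.37). It was called above with TPM rescaled to the nuclear-encoded coding genes alone (1.46, limma adjusted p = 0.0082). That rescaling lets more low genes pass the minimum of 1, which lowers the median gene. Tlr6, which with Tlr2 binds diacylated lipopeptides, stood at 10.7, 5.08 and 6.02 TPM (7.27 ± 3.02), near the median gene (-0.04 ± 0.09, limma adjusted p = 1). Within libraries Tlr2 exceeded the sum of Tlr1 and Tlr6 4.61 ± 0.56 times (4.78, 5.06 and 3.98). Tlr1 exceeded Tlr6 2.23 ± 0.12 times, in 3 of 3 libraries.

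Tlr4, the receptor that lipid A acts through, stood at 30.5, 14.8 and 22.5 TPM (22.6 ± 7.83). Replicate 2 was the lowest library on this scale and at 2.57 times the median gene, against 3.36 and 3.28 times in replicates 1 and 3. The level was 1.59 ± 0.09 above the median gene (limma adjusted p = 0.00063), and it was not called when the tested genes were restricted to a mean of at least 5 TPM, which raises the median gene (0.67, limma adjusted p = 1). Tlr4 (ENSMUSG00000039005.13) lies at chr4:66827584-66930284. Tlr2 exceeded Tlr4 5.63, 5.60 and 3.32 times in the 3 libraries, so the ratio was lowest in replicate 3.

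Tlr5, the flagellin receptor gene, stood at 0.86, 0.60 and 0.58 TPM (0.680 ± 0.156), under the minimum for the test. It had 215, 238 and 212 expected counts, where a count of 0 would allow up to 3 counts in each library (0.0469, 0.0417 and 0.0433 CPM). Tlr5 lies at chr1:182954788-182976044. Tlr11 and Tlr12, the remaining mouse members of the family, which bind profilin of protozoa, had 10, 2 and 7 and 5, 1 and 3 expected counts, or at most 0.04 TPM, and Tlr11 in replicate 2 and Tlr12 in replicates 2 and 3 did not pass 3 counts. In bulk RNA, fewer cells with a transcript and less of it per cell cannot be told apart.

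**Figure D2:**
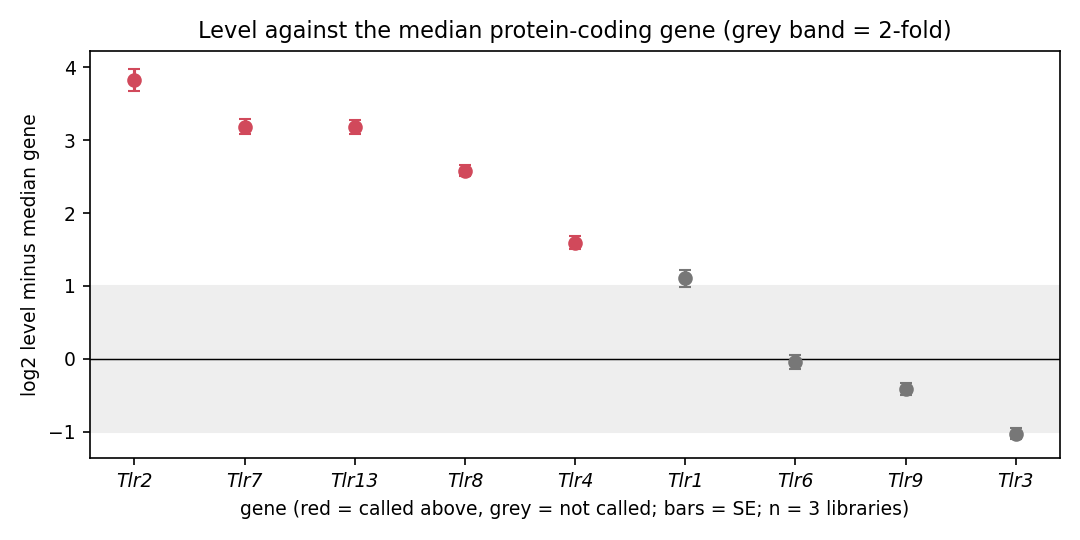
Level of each tested receptor gene minus the library's median protein-coding gene on the log2(TPM + 0.1) scale, with SE over 3 libraries and the 2-fold band in grey. The 5 genes in red, from Tlr2 at 3.83 to Tlr4 at 1.59, were called above the band by limma's test, and Tlr1, Tlr6, Tlr9 and Tlr3 were not called.

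The endosomal receptor genes Tlr7, Tlr13 and Tlr8 stood closest behind Tlr2. Tlr7, whose product binds single-stranded RNA, reached 102, 47.4 and 58.3 TPM (69.1 ± 28.8), 3.19 ± 0.10 above the median gene (limma adjusted p = 2.9e-06). Tlr13, whose product binds bacterial ribosomal RNA, reached 85.2, 45.1 and 72.3 TPM (67.5 ± 20.5), 3.18 ± 0.09 above the median gene (limma adjusted p = 2.0e-06). Replicate 1 was highest for both in TPM, but in units of the median gene Tlr13 was highest in replicate 3 (9.38, 7.82 and 10.5 times) and Tlr7 in replicate 1 (11.2, 8.22 and 8.50 times). Tlr8, whose product also binds RNA, stood at 54.8, 31.4 and 46.2 TPM (44.1 ± 11.8), 2.58 ± 0.08 above the median gene (limma adjusted p = 3.5e-06), and like Tlr13 it was highest in replicate 3 in units of the median gene (6.03, 5.45 and 6.74 times).

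All 3 of these genes lie on the X chromosome, Tlr8 and Tlr7 on the minus strand 40599 bases apart (chrX:167242696-167264329 and chrX:167304929-167330558) and Tlr13 on the plus strand at chrX:106143204-106160493. The pair of neighbours kept a ratio of Tlr7 to Tlr8 of 1.86, 1.51 and 1.26, above 1 in 3 of 3 libraries.

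The DNA receptor gene Tlr9 and the double-stranded RNA receptor gene Tlr3 were lower. Tlr9 stood at 7.90, 3.82 and 4.92 TPM (5.55 ± 2.11), at -0.42 ± 0.08 against the median gene, and was not called (limma adjusted p = 1). Tlr3 stood at 5.01, 2.53 and 3.19 TPM (3.58 ± 1.28), at -1.03 ± 0.08 against the median gene, and was not called (limma adjusted p = 0.65). It was called below with kallisto's values (-1.40, limma adjusted p = 0.0035) and when transcripts under 1000 bases were left out (-1.20, limma adjusted p = 0.030). With kallisto's values every tested member lay lower against the median gene, so this shift was not particular to Tlr3. For example, Tlr2 lay at 3.35 in place of 3.83, Tlr8 at 2.35 in place of 2.58 and Tlr9 at -0.84 in place of -0.42. Tlr7 exceeded Tlr9 12.4 ± 0.52 times. Tlr9 lies at chr9:106222598-106226883 and Tlr3 at chr8:45395665-45411080. Antisense to Tlr3 lies the annotated gene Gm45542, the only gene that overlaps a member, at 0.01 TPM. No source used here says if reads were counted by strand, so the pair is uncertain.

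Neighbours in the order of mean TPM were compared within libraries, and a difference was taken as beyond the spread where it had the same sign in 3 of 3 libraries and its mean exceeded 2 SD. This held for 7 of 9 neighbour pairs. The exceptions were Tlr7 and Tlr13, which differed by 0.01 ± 0.29 on the log2(TPM + 0.1) scale with Tlr7 higher in 2 of 3 libraries, and Tlr4 and Tlr1, which differed by 0.49 ± 0.29 with Tlr4 higher in 3 of 3. Of all 45 pairs 42 differed beyond their spread, and the third exception was Tlr2 and Tlr13 (0.65 ± 0.52, Tlr2 higher in 3 of 3). With 3 libraries the exact sign-flip permutation test cannot give a 2-sided p under 0.25, so these are statements about spread only. Tlr2 exceeded Tlr7 by 0.64 ± 0.25, Tlr13 exceeded Tlr8 by 0.60 ± 0.07 and Tlr8 exceeded Tlr4 by 0.99 ± 0.12, each in 3 of 3 libraries. The widest gap between neighbours was that from Tlr3 to Tlr5, at 2.20 ± 0.26.

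The composition of the family shifted between libraries mainly through Tlr2 and Tlr13. The 10 genes summed to 494, 245 and 301 TPM. Of this sum Tlr2 took 34.8, 33.9 and 24.8%, while Tlr13 took 17.3, 18.4 and 24.0% and Tlr8 11.1, 12.8 and 15.3%. Replicate 3 was thus lowest for Tlr2 and highest for Tlr13 and Tlr8, and Tlr13 stood at 0.496, 0.543 and 0.967 of the level of Tlr2. The 5 surface receptors took 48.4, 46.9 and 38.7% of the sum and the 5 endosomal receptors 51.6, 53.1 and 61.3%. With transcripts of at least 1000 bases only, the surface receptors took 51.6, 50.2 and 41.4%, so which set was larger in replicates 1 and 2 depended on the transcripts counted. Shares of Tlr7 (19.8 ± 0.74%), Tlr9 (1.60 ± 0.036%) and Tlr3 (1.04 ± 0.022%) varied little.

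**Figure D3:**
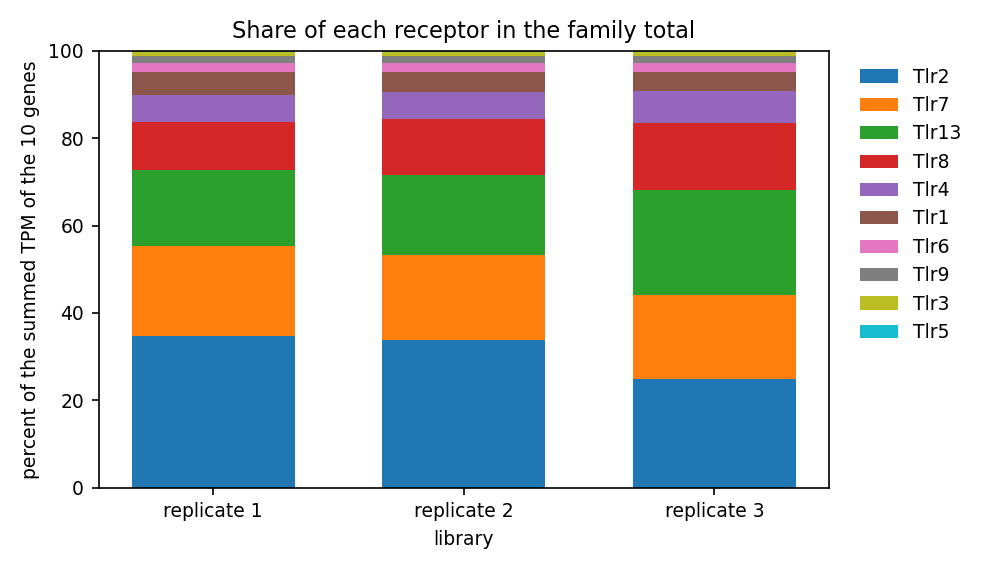
Percent of the summed TPM of the 10 receptor genes taken by each gene, 1 bar per library. Tlr2 takes 34.8 and 33.9% in replicates 1 and 2 and 24.8% in replicate 3, where Tlr13 takes 24.0%.

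Variation of each gene between libraries was also taken from the expected counts as edgeR's tagwise biological coefficient of variation (BCV), which with 3 libraries is drawn toward the trend over all genes. The members' median BCV was 0.130, beside 0.122 over 13026 genes. Tlr2 had the highest BCV of the members (0.193), followed by Tlr5 (0.185, at low counts), Tlr1 (0.165) and Tlr7 (0.145), and Tlr8 the lowest (0.113). For Tlr2 the expected counts were also highest in replicate 1 and lowest in replicate 3. The libraries held 63944236, 71989793 and 69305836 counts on annotated genes, and 7SL RNA took 57.1, 69.6 and 62.2% of the TPM in replicates 1, 2 and 3, which lowers the TPM of every other gene in proportion. Levels against the median gene of the same library do not carry this difference.

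The members differed in how many annotated transcripts shared their level. Tlr2 and Tlr9 have a single transcript, and Tlr13-201 and Tlr4-201 took 99.4 ± 0.14% and 97.7 ± 0.73% of their gene's TPM, so 4 of 10 members had at least 90% in 1 transcript. Tlr4-202, a coding transcript with a shorter reading frame of 462 bases against 2505 in Tlr4-201, held 0, 2.27 and 3.37 expected counts. For Tlr5, Tlr5-201 took 88.5 ± 2.1%.

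Reads of Tlr1 were assigned to both of its annotated starts. Tlr1-201 starts at base 64932761 of chromosome 5 and took 64.4, 60.2 and 64.9% of the gene's TPM, and Tlr1-202 starts at base 64933561 and took 28.7, 27.3 and 28.2%. Both encode the same 2385 coding bases. The stretch printed above for Tlr1 lies before the start of Tlr1-202, and its single GAGGAA begins 23 bases before the RefSeq start. The rest went to the noncoding Tlr1-203 (8.79 ± 3.2%).

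Short annotated transcripts weighed heavily on the TPM of some members. Tlr6-202, of 446 bases, took 41.5, 42.7 and 34.5% of the TPM of Tlr6 but only 4.66, 4.89 and 3.36% of its expected counts. Restricted to transcripts of at least 1000 bases, an alternative chosen after seeing the data, Tlr6 stood at 4.37 ± 1.72 TPM, under Tlr9 at 5.55, and the ratio of Tlr1 to Tlr6 was 3.38 ± 0.37. In Tlr7, coding transcripts of at least 1000 bases took 76.5 ± 1.0% of the TPM and 98.9 ± 0.078% of the counts, and with them alone Tlr7 stood at 53.0 ± 22.6 TPM, under Tlr13 at 67.1 ± 20.4. The order of Tlr7 and Tlr13 and that of Tlr6 and Tlr9 therefore depended on which transcripts were counted, while Tlr2 stayed first and Tlr5 last.

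**Figure D4:**
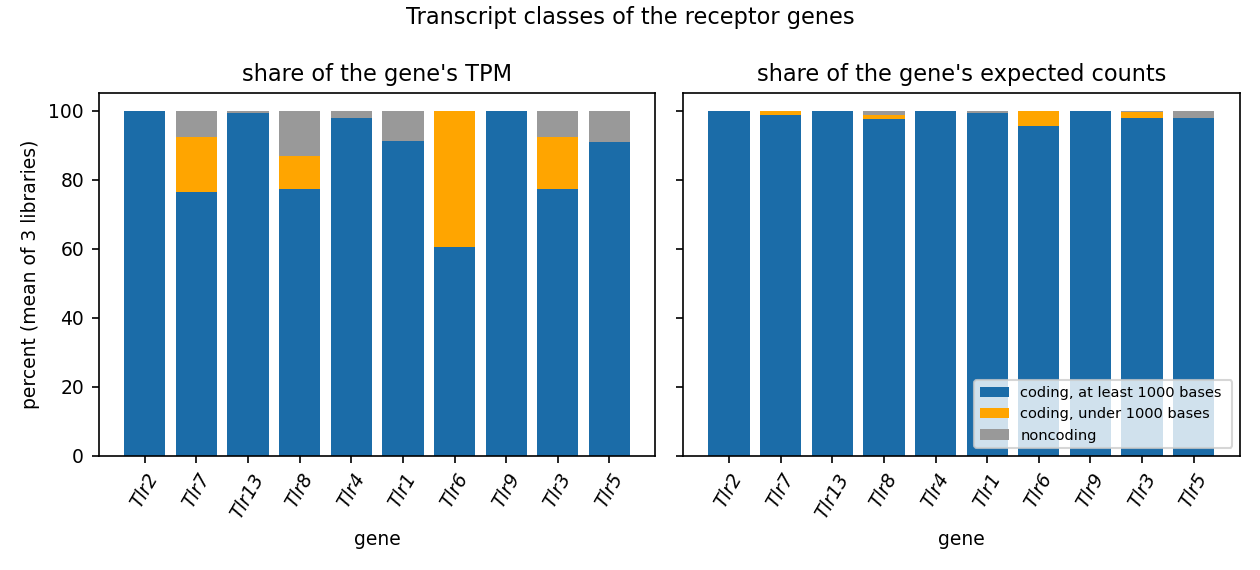
Percent of each receptor gene's TPM (left) and expected counts (right) in coding transcripts of at least 1000 bases, shorter coding transcripts and noncoding transcripts, means of 3 libraries. Short coding transcripts take 39.6% of the TPM of Tlr6 and 4.31% of its counts.

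The transcripts of Tlr8, Tlr3 and Tlr7 were split differently by the 2 deposited quantifications, and those of Tlr1 and Tlr6 less so. Tlr8-202 took 56.6, 42.9 and 47.5% and Tlr8-201 took 21.7, 33.4 and 29.7% of the TPM of Tlr8 in the first tables, both with the same 3096 coding bases. In kallisto's table Tlr8-201 was listed at 0% in all 3 libraries and Tlr8-202 took 67.6 ± 1.6%. For Tlr3, Tlr3-201 took 46.1 ± 10.4% and Tlr3-205 took 15.9 ± 8.2% in the first tables, against 26.8 ± 8.5% and 38.3 ± 6.4% in kallisto's. Tlr7-201 took 61.3 ± 0.94% and Tlr7-202 took 11.1 ± 1.0% in the first tables, against 42.6 ± 2.6% and 25.1 ± 0.65% in kallisto's. The shifts were smaller for Tlr1-201 (63.1 against 54.9%) and Tlr6-201 (60.4 against 52.4%). Transcript levels of these genes are uncertain for that reason. Gene levels kept the same order of means in both, from Tlr2 at 44.6 ± 10.5 TPM through Tlr7, Tlr13 and Tlr8 (30.0 ± 5.97, 28.7 ± 7.40 and 22.2 ± 4.49) and Tlr4 (10.2 ± 2.04) to Tlr5 at 0.321 ± 0.0090 in kallisto's.

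Of 9 genes listed for ligand delivery or as co-receptors, 7 were above the median gene, 0 below, 1 not called and 1 under 1 TPM. Over all tested protein-coding genes 26.3% were above and 24.5% below. Cd14, the co-receptor that passes lipopolysaccharide to the receptor complex, stood at 485 ± 77.3 TPM, Cd36, a scavenger receptor that assists Tlr2, at 132 ± 68.3, and Cd180, which encodes a relative of the Tlr4 protein, at 107 ± 28.1 TPM. Cd14 exceeded Tlr4 18.8, 30.0 and 19.4 times, most in replicate 2. Ly96, the MD-2 subunit that binds lipid A beside Tlr4 and a gene named after its value was seen, stood at 19.8, 11.4 and 14.2 TPM, or 0.681 ± 0.073 of the level of Tlr4. Lbp, which encodes the serum protein that delivers lipopolysaccharide, was at 0.270 ± 0.0854 TPM.

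Of the folding and trafficking genes 8 of 10 lay above the median gene by the test and 2 were not called, beside 26.3% above over all tested genes. Unc93b1, the chaperone that carries the endosomal receptors out of the endoplasmic reticulum, stood at 191, 106 and 142 TPM (146 ± 42.9), which was 0.776 ± 0.032 of the summed level of the 5 endosomal receptors. Hsp90b1, the folding chaperone gp96, stood at 117 ± 34.6 TPM and Rab7b, a GTPase of late endosomes, at 49.1 ± 8.82 TPM. Among the proteases that cleave endosomal receptors 5 of 6 were above and 1 was below, led by the cathepsin genes Ctsb (2503 ± 1004 TPM) and Ctss (816 ± 304) and by Lgmn, asparagine endopeptidase (482 ± 108 TPM).

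The median level was 41.8 TPM over the ligand delivery and co-receptor genes. It was 27.7 TPM over the folding and trafficking genes and 337 TPM over the proteases. Lower medians, 11.0 and 14.8 TPM, were those of the TIR adaptor genes and of the kinases and ubiquitin enzymes. Of 6 TIR adaptor genes 2 were above, 1 was below, 2 were not called and 1 was under 1 TPM. Pik3ap1, which links the receptors to phosphoinositide 3-kinase, stood at 115 ± 20.8 TPM, Myd88, the adaptor of all members but Tlr3, at 25.6 ± 7.65, and Ticam1 (TRIF), the adaptor of Tlr3 and of endocytosed Tlr4, at 14.1 ± 3.64 TPM. Sarm1 was at 0.04 ± 0.0361 TPM. Of 9 kinases and ubiquitin enzymes 3 were above and 6 were not called, led by Ube2n (35.3 ± 9.94), Irak2 (22.5 ± 6.32) and Tbk1 (18.5 ± 5.93 TPM). Of 7 inhibitors of receptor signalling 2 were above, 1 below, 2 not called and 2 under 1 TPM. Nrros, which encodes a leucine-rich repeat protein of the endoplasmic reticulum, stood at 126 ± 42.1 TPM, Tollip at 25.5 ± 5.92 and Rnf216 at 7.02 ± 1.72 TPM, while Sigirr and Il1rl1 were at 0.437 ± 0.0651 and 0.07 ± 0.02 TPM. Over the tested protein-coding genes 26.3% were called above the median gene and 24.5% below. Of the 47 partner genes 4, under 1 TPM, were not tested and 13 were not called. In all, 27 partner genes were called above the median gene and 3 below. The 3 below, named after their values were seen, were the protease gene Ctsk (1.07 ± 0.397 TPM), the adaptor gene Tirap (1.47 ± 0.358 TPM), whose product bridges Tlr2 and Tlr4 to MyD88, and the ubiquitin ligase gene Rnf170 (3.01 ± 0.898 TPM).

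**Figure D5:**
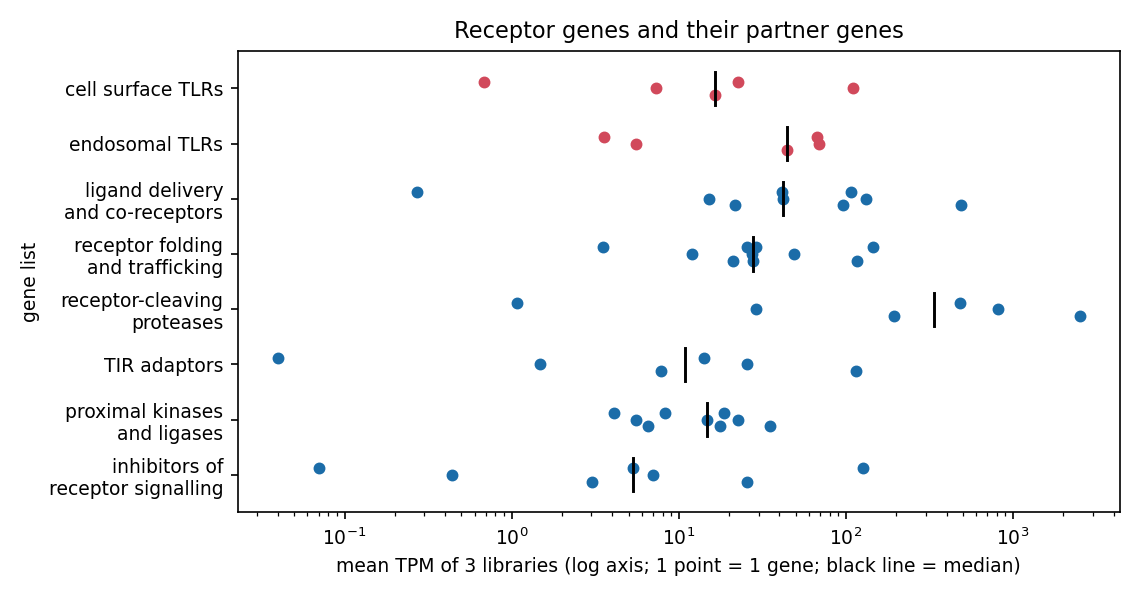
Mean TPM over 3 libraries of the receptor genes (red) and of 6 lists of partner genes (blue) on a log axis, 1 point per gene with a black line at each list's median. The medians run from 5.32 TPM for inhibitors to 337 TPM for proteases, and those of the surface and endosomal receptors are 16.4 and 44.1 TPM.

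By level, the genes most like Tlr2 over the 3 libraries (smallest root mean square difference in log2(TPM + 0.1)) were Mapkapk2, Atp5e and Ehd1, at 0.16 to 0.20. Those most like Tlr4 were Pdia4, Cln8 and Neu1, at 0.037 to 0.048. This is likeness over 3 libraries only.

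The libraries carried the transcripts of macrophages and few of other cell types in which these receptors are known. Of 12 macrophage markers 11 were above the median gene, led by Lyz2 (5032 ± 2089 TPM), Cd68 (693 ± 143) and Cd14, and 1, Marco, was below (1.01 ± 0.428 TPM, named after its value was seen). The summed level of the list was 4958 to 9745 TPM. Cd14 and Itgam are also in the co-receptor list, so their calls count in both. Over all tested genes 26.3% were called above the median gene and 24.5% below. Of 8 B cell markers 7 were under 1 TPM, and the sum was 1.65 to 4.11 TPM, mostly Cd22 (2.05 ± 1.20), Cd79b (0.480 ± 0.151) and Fcmr (0.0267 ± 0.0153). Ms4a1, Cd79a, Pax5 and Ebf1, which are typical of B cells, had means of at most 0.0133 TPM, and Ebf1 had 0, 1 and 1 expected counts. Of 8 markers of plasmacytoid dendritic cells, which carry Tlr7 and Tlr9, 7 were under 1 TPM. Their sum was 14.4 to 22.5 TPM, mostly Tcf4 (16.5 ± 4.18), with Cox6a2 at 0.427 ± 0.0777 and Siglech at 0.267 ± 0.0603 TPM. Tcf4 was itself called above the median gene (1.17 ± 0.06, limma adjusted p = 0.026). That call was lost under 6 of 12 alternatives, among them leaving out replicate 1 (1.10, limma adjusted p = 0.23) or replicate 2 (1.19, limma adjusted p = 0.059). The conventional dendritic cell list summed to 2.20 to 3.04 TPM with 7 of 8 under 1 TPM (Batf3 1.25 ± 0.336, Ccr7 0.770 ± 0.0656, Xcr1 0.203 ± 0.0321). The neutrophil list summed to 25.6 to 32.6 TPM with 7 of 10 under 1 TPM (S100a9 15.9 ± 1.96, S100a8 10.1 ± 1.33, Ngp 1.92 ± 0.307). The T and NK cell list summed to 0.04 to 0.10 TPM with 8 of 8 under 1 TPM (Lck 0.0433 ± 0.0252, Cd3d 0.01 ± 0.01, and Nkg7 and Klrb1c both at 0.00667 ± 0.0115) and Ncr1 at 0 counts in every library. The stromal and endothelial list summed to 1.87 to 3.89 TPM with 7 of 8 under 1 TPM (Kdr 2.28 ± 1.05, Pecam1 0.177 ± 0.0603, Cdh5 0.123 ± 0.0586). Of these other markers Cd22, Batf3, Ngp and Kdr were called below the median gene, and S100a9 and S100a8 were not called; under the alternatives S100a9 was called above the median gene in 3 and S100a8 in 1. The part of other cells in the receptor levels was not tested.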

How the data were processed

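The 3 libraries form 1 group, so no comparison between conditions was made. The members, gene lists and motifs were chosen with earlier results of these data known. Per the file headers, the deposited gene and transcript tables give the expected count, TPM and FPKM in columns named as RSEM writes them, with the percent of the gene's TPM in each transcript. The other deposited transcript table holds an estimated count and TPM, named as in kallisto's output. Per the deposited description files the build is mm10 with GENCODE M21. For aligner, quantifiers, versions and use of strand: not given in the sources used here. All 55536 gene IDs matched the GENCODE M21 annotation.

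Rows that are no annotated gene held 0.260, 0.0933 and 0.0577% of counts and were left out. Levels were log2(TPM + 0.1) after subtraction of the library median over protein-coding genes with a mean of at least 1 TPM, tested with limma 3.58.1 (R 4.3.3; intercept only, treat with a band of 1, trended prior, Benjamini-Hochberg at 0.05). Fold differences on this scale understate those of low genes. Expected counts, rounded to whole numbers, gave BCV in edgeR 4.0.16 (TMM, filterByExpr). Counts differed between each pair of libraries by more than sampling noise. The floor for a gene with no counts is 3 counts and covers counting error only. Python 3.11.15 with pandas 2.3.3 did the rest. On simulated data with a common spread, the level test called most genes given the largest shift, well beyond the band. No claim is made here for shifts near the band. In simulated counts the BCV of highly variable genes came out too low.

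Named were all members, Tlr11 and Tlr12, the 3 highest genes of each list, partner genes under 1 TPM, and the 3 genes most like Tlr2 and Tlr4. The value of 1 marker gene is not reported here. Alternatives were kallisto's TPM, TPM rescaled to nuclear-encoded coding genes, FPKM, other pseudocounts and minimum levels, an untrended prior, RLE size factors, leaving out each replicate and, added after seeing the data, transcripts of at least 1000 bases.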

Additional observations from a re-analysis of the deposited data

How the results depend on the processing

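No paired analysis was possible because the series has 1 group. Tlr2, Tlr7, Tlr13 and Tlr8 were called above the median gene under all 12 alternatives, and Tlr4 under 11, the exception being a minimum mean of 5 TPM. With every protein-coding gene kept, and so a lower median gene, Tlr3, Tlr9 and Tlr6 moved to 0.33, 0.94 and 1.32 on the log2 scale, the last called above with Tlr1 (2.46). Tlr6, near the median gene, also changed sign with rescaled TPM (0.30) and FPKM (0.11), and ranged from -0.23 to 0.059 when 1 replicate was left out. Rescaled TPM and FPKM multiply all genes of a library by the same factor. More low genes then pass the minimum of 1, and the median gene is lower. The number of members called below was 1 in place of 0 with kallisto's TPM and with transcripts of at least 1000 bases (Tlr3), with rescaled TPM, FPKM and no filter (Tlr5), and with a minimum mean of 5 TPM (Tlr9). Over all protein-coding genes the counts above and below were 4986 and 5463 without a filter and 1254 and 491 with a minimum of 5 TPM, and 1427 were below with kallisto's TPM. Partner genes called above numbered 16 with a minimum of 5 TPM, and those below 5 without a filter. The causes of these changes were not tested beyond the shift of the median gene that each filter makes. Of 9 neighbour pairs, 6 to 8 differed beyond their spread when 1 replicate was left out, and without replicate 1 the mean of Tlr13 exceeded that of Tlr7. The members' median BCV was 0.116 to 0.136 in these runs. Rescaling cannot change the order within a library, since all its genes share the factor. The order of the means was also the same as in the deposited TPM. Counting error is small for all members but Tlr5, and 3 libraries limit what spread can be seen.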
